A study of Mus musculus with 24 samples.

Results

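The genes described here are 10 that normal thymus hardly expressed and that the thymic lymphomas carried at raised levels: Vgll1, Tmem132b, Trnp1, Cym, Arg1, Nr3c2, Ace, Sall3, Wisp1 and Sh3rf3. They are 10 of 21878 genes counted, and they were chosen by their size: they head the genes that were higher in the lymphomas than in thymus, ranked by fold change among genes with a mean of at least 10 CPM (counts scaled to the library total) in the lymphomas and, in 90% of them or more, a level beyond that of thymus. The contrast of lymphomas with thymus is therefore given below as a description, with no test. What the choice did not use is which of the genes go together and how they relate to the mutation state of Ikzf1. Its 90% limit does bear on how they vary from one lymphoma to the next. The numbers of lymphomas that express each gene are therefore a description too. The study sequenced RNA of female B6C3F1 mice, from 21 thymic lymphomas and from normal thymus (3 samples). The lymphomas arose after carbon ions, heavy charged particles, had been given to the whole body in 4 weekly doses of 1.6 Gy from an age of 4 to 5 weeks, and the same treatment label stands on the thymus samples, whose titles carry the mark 7W without an explanation. By the columns of the authors' tables, 11 lymphomas belong to the set with Ikzf1 mutations (2, 4, 7, 9, 10, 12, 13, 14, 15, 16 and 17, named by library number) and 10 to the set without (18, 19, 20, 21, 22, 30, 31, 32, 34 and 35). Ikzf1 encodes Ikaros, a zinc finger transcription factor of lymphoid cells. The RNA was taken from dispersed cells of each lymphoma or thymus, all libraries carry 1 batch label, and the labels do not say that each lymphoma came from a separate mouse, so that p-values cover only the spread among the samples, which may in part be technical.

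Thymocytes pass through ordered stages in which genes of other lineages are shut and the T-cell programme is opened, and a thymic lymphoma is an outgrowth of such cells. Genes that belong to other tissues and are read in a tumour are called ectopic. The 10 genes have different homes: gastric juice of the newborn for Cym, the liver for Arg1, vessel walls and kidney for Ace, salt-handling epithelia for Nr3c2 and the nervous system for Trnp1 and Sall3. Arg1 and Ace are also genes of macrophages, which are present in thymus and in tumours.

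Library totals were 15 to 36.6 M counts (mega) in the lymphomas and 24.5 to 27.5 M in thymus. All 12 T-lineage markers examined, such as Cd3e and Lck, were detected in every lymphoma and thymus library, with a summed level of 5229 to 10633 CPM in the lymphomas and 12349 to 13147 CPM in thymus. Levels below are CPM scaled by TMM (trimmed mean of M values), a correction for the make-up of each library. A gene is called expressed in a library at 1 CPM or more. In RNA from mixed cells, fewer cells of a type and less RNA per cell cannot be told apart.

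The sequence before the start site is shown for 4 of the genes, chosen to span the group: Vgll1, which had no count in thymus, Cym and Ace, which had the lowest p-values between the Ikzf1 sets, and Sh3rf3, whose window holds the most CpG dinucleotides. Each run is the 250 bases before the RefSeq start site on GRCm38.p6, 5′ to 3′ on the gene's strand. In the set of RefSeq windows used here, 7 of the 10 gene symbols were matched, with 8 windows, since Ace has 2 start sites, of which the first is shown. Arg1, Sall3 and Wisp1 were not matched, and Wisp1 was looked up by that symbol only. This is a limit of the matching and does not mean that RefSeq lacks their start sites. Capitals mark matches, on either strand, to 4 short motifs: TGGGAA (bound by RBPJ, the DNA-binding partner of Notch), TGTGGT (RUNX factors), CAGGTG (E proteins) and GGAATG (TEAD factors). None of these words overlaps another here.
Vgll1, chrX:57087856-57088105, plus strand: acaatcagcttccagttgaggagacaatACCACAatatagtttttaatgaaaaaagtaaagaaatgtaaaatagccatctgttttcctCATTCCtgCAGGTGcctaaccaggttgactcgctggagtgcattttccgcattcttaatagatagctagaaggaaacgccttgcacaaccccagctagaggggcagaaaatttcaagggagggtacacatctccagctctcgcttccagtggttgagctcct
Cym, chr3:107221733-107221982, minus strand: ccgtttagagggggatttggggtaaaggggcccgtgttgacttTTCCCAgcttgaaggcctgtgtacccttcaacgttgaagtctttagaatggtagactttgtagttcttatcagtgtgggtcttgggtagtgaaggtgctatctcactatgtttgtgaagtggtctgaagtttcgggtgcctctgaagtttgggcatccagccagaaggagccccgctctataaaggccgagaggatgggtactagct
Ace, chr11:105967698-105967947, plus strand: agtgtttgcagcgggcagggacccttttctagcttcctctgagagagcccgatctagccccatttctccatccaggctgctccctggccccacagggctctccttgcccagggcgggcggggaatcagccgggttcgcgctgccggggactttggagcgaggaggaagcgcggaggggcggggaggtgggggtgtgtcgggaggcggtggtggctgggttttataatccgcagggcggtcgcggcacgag
Sh3rf3, chr10:58813109-58813358, plus strand: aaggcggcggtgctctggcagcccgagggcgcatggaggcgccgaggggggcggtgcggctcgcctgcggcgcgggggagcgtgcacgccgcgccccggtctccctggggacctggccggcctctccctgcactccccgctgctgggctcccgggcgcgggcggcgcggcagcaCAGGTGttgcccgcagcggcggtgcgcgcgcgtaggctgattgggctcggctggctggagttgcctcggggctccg
The Vgll1 window holds a RUNX word, a TEAD word and an E-protein word, read from its 5′ end. The Cym window holds 1 RBPJ word, the Sh3rf3 window 1 E-protein word and neither Ace window any of the 4. Among 32841 windows of the same length, 21.6% hold the RBPJ word, 14% the RUNX word, 17.2% the E-protein word and 12.6% the TEAD word, so single matches are common. The number of CpG dinucleotides, the bases at which vertebrate DNA is methylated, ran from 4 for Vgll1 over 6 for Cym and for Tmem132b, 13 for Trnp1, 17 for Nr3c2 and 19 for the first Ace window to 35 for Sh3rf3, and the second Ace window holds 1. The median over all windows was 6, with quartiles at 2 and 16.

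In thymus each of the 10 genes stayed below 1 CPM in all 3 libraries, with 0 to 15 counts per gene over the 3 libraries together. In the lymphomas 6 to 10 of the 10 were expressed per library, with a median of 9. Cym, Arg1, Trnp1 and Nr3c2 were expressed in all 21 lymphomas, Tmem132b in 18, Sh3rf3 in 17, Vgll1 and Ace in 16 each, and Sall3 and Wisp1 in 15 each. All 21 lymphomas lay above the highest thymus library for Tmem132b, Trnp1, Cym, Arg1 and Nr3c2. Over all 13121 genes kept in the model 6.33% did so, a share from which nothing is read here because the choice of the genes used this contrast. For the same reason it is only a description that all 10 passed edgeR's test in it, where 15.4% of all genes passed as higher in the lymphomas. Marker sums of other cell types also differed from thymus: 11 fibroblast markers summed to 148 to 1366 CPM in the lymphomas against 15.1 to 20.3 in thymus. Of these 11, 8 were higher by edgeR's test, of which Col1a1, Col3a1, Sparc and Fbln1 held in all 24 fits that left out 1 library, none was at 0, and Lum stayed below 1 CPM in every lymphoma. The fibroblast sum rests largely on a few genes: Col1a2, Pdgfrb and Fbln1 reached 949, 858 and 371 CPM, but Col1a1 and Col3a1 only 37.1 and 39.3. Col1a2 itself ranked 14 by the rule that chose the 10 genes. Thymic epithelial markers summed to 2.19 to 41 CPM against 31.9 to 75.6, with 7 of 10 tested lower, and neutrophil markers to 0.818 to 67.7 against 59.7 to 111, with 10 of 11 lower, where 15.4% of all genes were lower. The highest of these sums in the lymphomas rested largely on 1 gene each, Cd83 (up to 36.2 CPM) and Retnlg (up to 65.6 CPM). The epithelial marker Prss16 reached only 0.351 CPM in the lymphomas. The part of fibroblasts, epithelial cells and neutrophils in the levels of the 10 genes was not tested. The last gene inside the list, Sh3rf3, had a log2 fold change of 7.79, and the first outside it, Necab1, of 7.45.

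**Figure D1:**
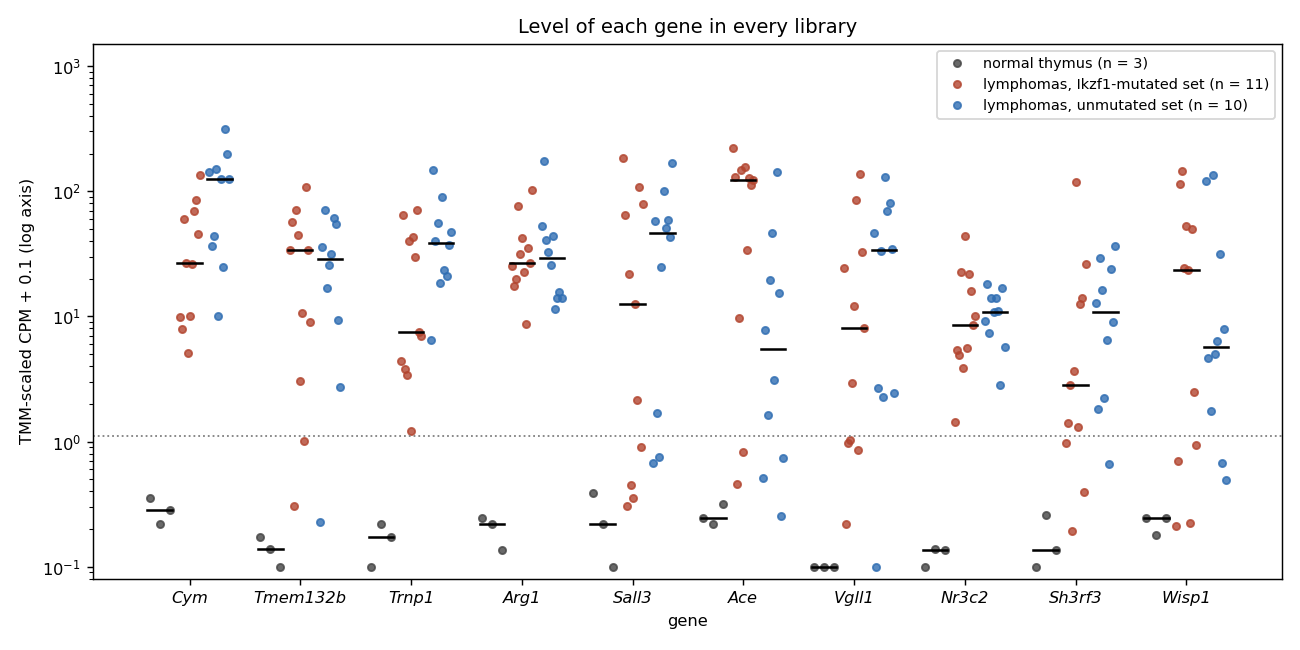
Each point is 1 library, with the TMM-scaled CPM plus 0.1 on a log axis and the genes along the horizontal axis in order of their median in the lymphomas. Short bars are group medians and the dotted line is 1 CPM. The thymus libraries stay below that line for all 10 genes, and in both lymphoma sets Tmem132b, Sall3, Ace, Vgll1, Sh3rf3 and Wisp1 reach from above 10 CPM to below 1.

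Among the genes for nuclear proteins, Vgll1 encodes a co-factor of TEAD transcription factors. All 10 genes are annotated as protein-coding, and Vgll1 spans 57088106 to 57106540 on chromosome X (GRCm38, as all positions here). It had 0 counts in each thymus library, and 0, 12.1 and 136 CPM as lowest, median and highest level in the lymphomas. Lymphoma 19 had no count, lymphomas 4, 7, 9 and 14 stayed below 1 CPM, and lymphomas 15 and 30 were highest with 136 and 130 CPM. Measured against a floor of 3 counts over the 3 thymus libraries, its mean level in the lymphomas, 33.5 ± 42.8 CPM (SD, n = 21), was at least 899.9-fold higher. The 5 lymphomas above 50 CPM came from both Ikzf1 sets.

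Sall3, a zinc finger transcription factor of the spalt family (chromosome 18, 80966376 to 80986771), showed the widest separation within the lymphomas. Thymus held 0.287, 0.118 and 0 CPM, and the lymphomas 0.204, 24.8 and 185 CPM as lowest, median and highest. A gap between 2.04 and 12.4 CPM took 29.4% of its range on the log2 scale, with 8 lymphomas below it (7, 10, 12, 14, 16, 18, 20 and 21) and 13 above. Lymphomas 7 and 12 lay within the thymus range. The ratio of mean levels was 345 (46.6 ± 55.1 CPM over 0.135 ± 0.144, n = 21 and 3), and it was 786 without thymus library 1, which held 8 of the 11 thymus counts.

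Nr3c2 encodes the mineralocorticoid receptor, a steroid-regulated transcription factor that responds to aldosterone (chromosome 8, 76899442 to 77245012). Thymus held 0, 0.0395 and 0.0365 CPM, which is 2 counts in all, and the lymphomas 1.32, 9.93 and 44.1 CPM as lowest, median and highest. It was the most even of the 10, close to Arg1: its SD of log2(CPM + 1) over the lymphomas was 1.00, against 1.03 for Arg1 and 2.79 for Ace at the other end. The highest value belonged to lymphoma 12, with lymphomas 9 and 14 next at 22.5 and 21.6 CPM, and the groups did not overlap. The ratio of means was 474, with a counting interval of 131 to 3914 (95%, counting error only).

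Trnp1 encodes a nuclear protein known from the proliferation of neural progenitors (chromosome 4, 133491100 to 133498550). Thymus held 0, 0.118 and 0.0731 CPM and the lymphomas 1.1, 29.9 and 147 CPM as lowest, median and highest, lymphoma 12 being the lowest and lymphoma 19 the highest. No lymphoma overlapped thymus, and the ratio of means was 567, or 990 without thymus library 2. Within the lymphomas 7 stayed at or below 7.45 CPM and 14 at or above 18.5 CPM.

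Among the enzymes, Cym encodes chymosin, the milk-clotting aspartic protease of the stomach (chromosome 3, 107211293 to 107221732). It had the highest median of the 10 in CPM, with 5.02, 45.1 and 313 CPM as lowest, median and highest in the lymphomas against 0.251, 0.118 and 0.183 CPM in thymus. Lymphoma 10 was lowest and lymphoma 32 highest, 10 lymphomas exceeded 50 CPM, and every lymphoma lay above every thymus library. The ratio of means was 426 (78.5 ± 78.6 CPM over 0.184 ± 0.0663).

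Arg1 encodes arginase 1, which splits arginine into ornithine and urea (chromosome 10, 24915221 to 24927484). Thymus held 0.143, 0.118 and 0.0365 CPM and the lymphomas 8.53, 26.7 and 175 CPM as lowest, median and highest. No lymphoma came near the thymus range: the lowest, lymphoma 14, stood at 8.53 CPM. Lymphomas 19, 17 and 9 were highest with 175, 103 and 76.5 CPM, and the ratio of means was 399.

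Ace encodes angiotensin-converting enzyme, the peptidase that makes angiotensin II and cleaves bradykinin (chromosome 11, 105967945 to 105989964). It was the most variable of the 10 over the lymphomas, rank 10 of 13121 genes by SD on the log2 scale, followed by Sall3 (13), Wisp1 (24) and Vgll1 (34). Thymus held 0.143, 0.118 and 0.219 CPM and the lymphomas 0.154, 19.3 and 222 CPM as lowest, median and highest. In 8 lymphomas it stood at 112 CPM or more (2, 4, 10, 13, 15, 16, 17 and 31), while lymphomas 7, 12, 18, 34 and 35 stayed below 1 CPM, lymphoma 34 within the thymus range. The mean was 61.8 ± 70.7 CPM against 0.160 ± 0.0525 in thymus, a ratio of 385.

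Among the genes for secreted, membrane and signalling proteins, Wisp1 encodes a matricellular protein of the CCN family induced by Wnt signals (chromosome 15, 66891320 to 66923201). Thymus held 0.143, 0.0790 and 0.146 CPM and the lymphomas 0.110, 6.26 and 146 CPM as lowest, median and highest. It exceeded 100 CPM in lymphomas 7, 9, 18 and 21, and lay within the thymus range in lymphomas 2 and 14. The mean of 34.7 ± 49.8 CPM was 282 times that of thymus.

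Tmem132b encodes a transmembrane protein (chromosome 5, 125531774 to 125792583). Thymus held 0.0717, 0.0395 and 0 CPM, 3 counts in all, and the lymphomas 0.127, 31.6 and 109 CPM as lowest, median and highest. Lymphomas 7, 14 and 18 stayed below 1 CPM and lymphoma 15 was highest, without overlap with thymus. The ratio of means was 871, with a counting interval of 298 to 4225, and it was 1636 without thymus library 1. Sh3rf3 encodes an SH3-domain ubiquitin ligase of a family that scaffolds the JNK kinase cascade (chromosome 10, 58813359 to 59138916). Thymus held 0, 0.158 and 0.0365 CPM and the lymphomas 0.0930, 6.31 and 118 CPM as lowest, median and highest. Lymphoma 12 alone held 37.2% of the summed level over the lymphomas, the next, lymphoma 35, stood at 36.3 CPM, and lymphoma 9 lay within the thymus range. The ratio of means, 234, rose to 830 without thymus library 2, which held 4 of the 5 thymus counts, and was 154 without lymphoma 12.

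To set the genes beside each other per length, the authors' TPM values (a unit scaled for library size and gene length) were used. Their medians over the lymphomas ran from Cym with 87.5 TPM over Arg1 (44.1), Trnp1 (32), Vgll1 (14.4), Tmem132b (9.53), Ace (9.42), Sall3 (8.01), Nr3c2 (5.19) and Wisp1 (2.95) to Sh3rf3 with 1.03 TPM. Neighbours in this order were not apart beyond their spread: the upper of each pair was higher in only 8 to 15 of the 21 lymphomas. Cym was the highest of the 10 in 12 lymphomas, Arg1 in 4, Ace and Vgll1 in 2 each, and Trnp1 in 1.

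The lymphomas differed in which of the genes they lacked. All 10 were expressed in 5 lymphomas (13, 15, 20, 22 and 30), 9 in 7, 8 in 6, 7 in 2 and 6 in 1. There were 15 different combinations of genes below 1 CPM, and the only ones seen more than once, besides the full set, were the loss of Sall3 alone and of Wisp1 alone, in 2 lymphomas each. Lymphoma 7 lacked the most, with Vgll1, Tmem132b, Ace and Sall3 below 1 CPM and Wisp1 at 115 CPM. In lymphoma 18 Tmem132b, Ace and Sall3 were below 1 CPM and Wisp1 stood at 121 CPM. Lymphoma 2 held the opposite combination, with the highest Ace and Sall3 of the series (222 and 185 CPM) and Wisp1 at 0.110 CPM. At 10 CPM or more the number of the genes per lymphoma ran from 3 to 10, with lymphoma 15 the only one above that level for all 10.

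**Figure D2:**
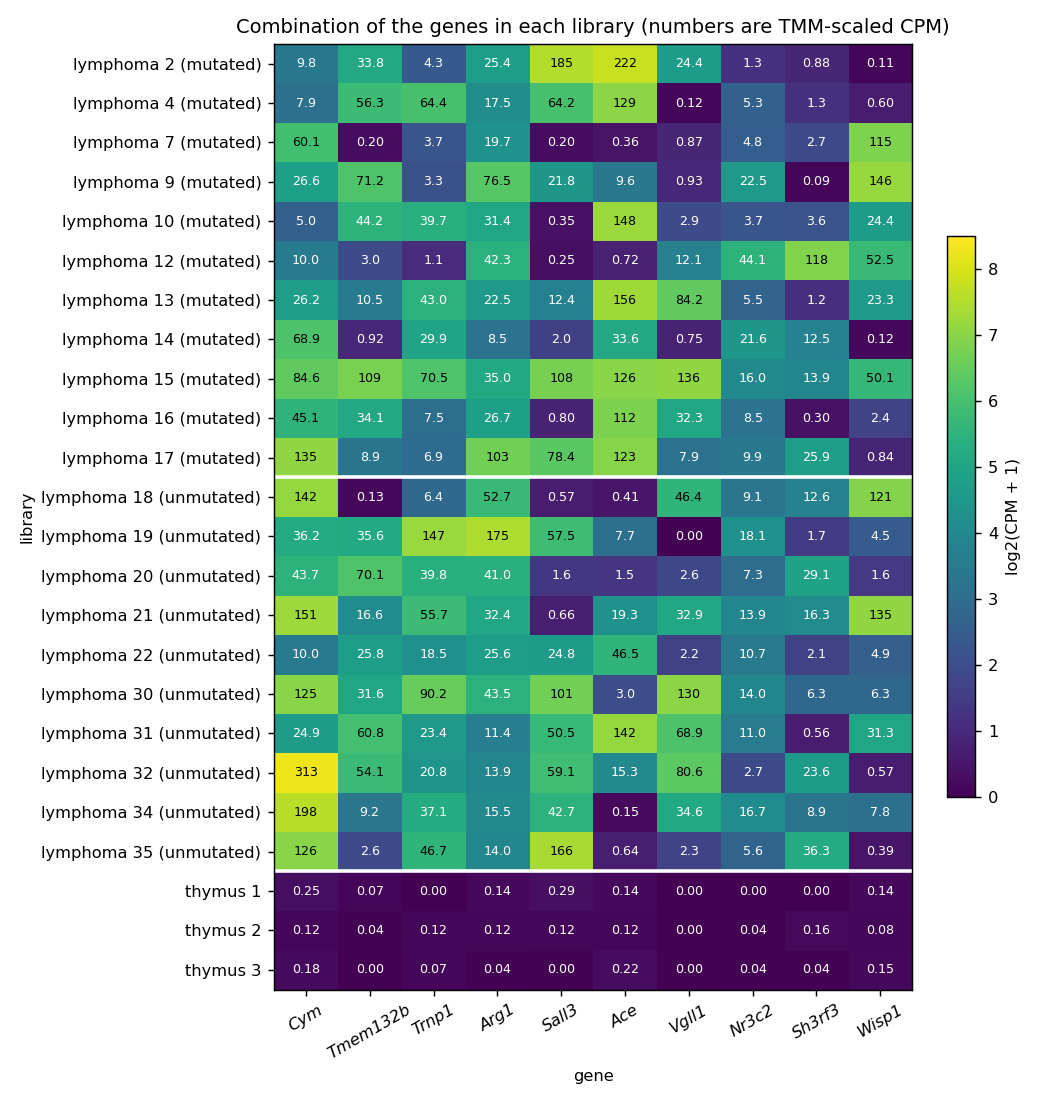
Rows are the 24 libraries, ordered by Ikzf1 set and library number, and columns the 10 genes. Colour is log2(CPM + 1) and the printed numbers are TMM-scaled CPM. All thymus cells are below 1 CPM, while each lymphoma row mixes levels above 10 CPM with lower ones in its own combination, except lymphoma 15.

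The Ikzf1 sets were compared over all genes in 1 edgeR model that also held thymus. None of the 10 genes passed between the sets (quasi-likelihood test, Benjamini-Hochberg adjusted), where 5.38% of all genes did, 2.43% as higher and 2.95% as lower in the mutated set. At an unadjusted p under 0.05 there was 1 of the 10, Cym, against 23.1% of all genes, and neither DESeq2 nor limma-voom called any after adjustment. The unadjusted count was 2 with each of these, 3 with limma on TPM and 0 without lymphoma 32. Cym was lower in the mutated set, at 43.6 ± 40.7 CPM against 117 ± 93.6 (SD, n = 11 and 10). The log2 fold change was -1.42 with an SE of 0.57 (edgeR p = 0.0191, adjusted p = 0.131). Its lowest, median and highest levels were 5.02, 26.6 and 135 CPM in the mutated set and 9.98, 125 and 313 CPM in the unmutated set, so that the sets overlapped over most of their range.

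Ace went the other way. It stood at 96.5 ± 74.1 CPM in the mutated set and 23.7 ± 44.1 in the unmutated set (log2 fold change 2.02, SE 0.98, edgeR p = 0.05, adjusted p = 0.217). Its medians were 123 and 5.36 CPM. At 112 CPM or more there were 7 of 11 mutated lymphomas but of the unmutated set only lymphoma 31, at 142 CPM. That cut is the upper edge of the largest gap in these same Ace levels. At 10 CPM or more there were 8 of 11 mutated and 4 of 10 unmutated lymphomas (Fisher's exact p = 0.198). At 1 CPM or more there were 9 of 11 and 7 of 10 (Fisher's exact p = 0.635). Without lymphoma 31 the log2 fold change was 3.22 and the difference passed (edgeR adjusted p = 0.0427), and over the 24 fits that each left out 1 library the adjusted p ran from 0.0427 to 0.292.

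The remaining 8 genes had smaller differences. Trnp1 averaged 24.9 ± 26.0 CPM in the mutated and 48.6 ± 41.8 in the unmutated set (log2 fold change -0.96, SE 0.63, edgeR adjusted p = 0.369). Vgll1 had a log2 fold change of -0.54 (SE 1.02), and the other 6 lay between -0.23 for Sall3 and 0.26 for Wisp1, Sh3rf3 and Nr3c2, with SEs of 0.46 to 1.06, and each of these 6 changed sign under at least 1 other setting or left-out library. For the number of lymphomas expressing each of the 10 genes at 1 CPM, the lowest p by Fisher's exact test was that of Vgll1, expressed in 7 of 11 mutated and 9 of 10 unmutated lymphomas (two-sided exact p = 0.311). At higher limits it was that of Trnp1. At 5 CPM the numbers were 7 of 11 and 10 of 10 (Fisher's exact p = 0.0902), and at 10 CPM 5 of 11 and 9 of 10 (Fisher's exact p = 0.0635).

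Which genes go together was examined over the 21 lymphomas with the correlation of log2(CPM + 1) for each of the 45 pairs. No pair held after adjustment (smallest Benjamini-Hochberg adjusted Spearman p = 0.286), and 5 had an unadjusted p under 0.05, one of them Sall3 with Wisp1. Among the others Cym and Ace ran opposite (Spearman's rho -0.54, permutation p = 0.0127, Pearson's r -0.43, permutation p = 0.0509, and r -0.40 once the 2 lymphomas with the most extreme Cym were left out). Cym and Sh3rf3 ran together (rho 0.50, permutation p = 0.0221), Ace and Sh3rf3 opposite (rho -0.46, permutation p = 0.0372) and Tmem132b and Ace together (rho 0.44, permutation p = 0.0462); the adjusted p was 0.331 to 0.416. Pearson's r for these was 0.43 (permutation p = 0.0515), -0.48 (0.0272) and 0.51 (0.0174), and without the 2 farthest lymphomas 0.39, -0.57 and 0.33. The Ikzf1 sets were pooled here, and Cym and Ace leaned in opposite directions between them. Other settings included each set alone. Over these settings rho ran from -0.54 to -0.43 for Cym and Ace and from 0.31 to 0.58 for Cym and Sh3rf3. It ran from -0.47 to -0.22 for Ace and Sh3rf3 and from 0.41 to 0.53 for Tmem132b and Ace. No pair held after adjustment in any of them. The median rho over the 45 pairs was 0.09, and 31 pairs had a rho between -0.3 and 0.3.

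Because Sall3 split the lymphomas into separate groups, its relations were read within them. Among the 13 lymphomas above its gap Wisp1 and Sall3 ran opposite (rho -0.58, permutation p = 0.0401, r -0.55, permutation p = 0.0499, and r -0.44 without the 2 farthest), and among the 8 below rho was -0.62 (exact permutation p = 0.115; r -0.83, exact permutation p = 0.0125, and -0.43 without the 2 farthest). Neither held after adjustment over the 38 relations read within groups (adjusted Spearman p = 0.381 and 0.615). Over the named lymphomas, Wisp1 exceeded 100 CPM in 7, 9, 18 and 21, of which 3 lay below the Sall3 gap.

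**Figure D3:**
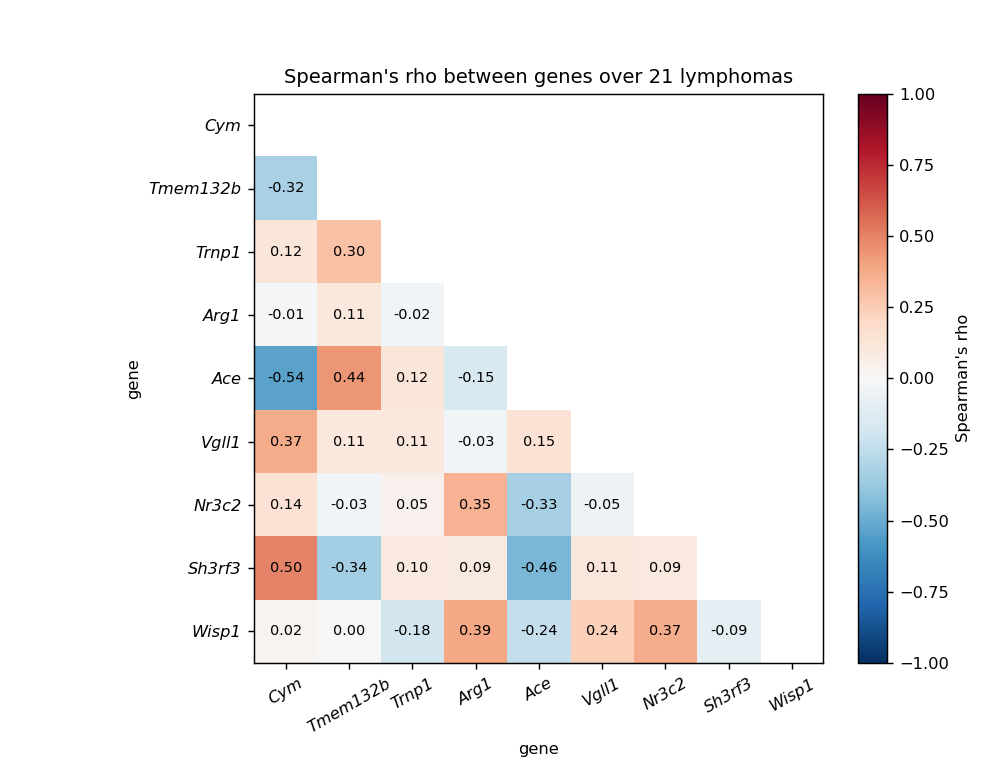
Each cell is Spearman's rho between 2 genes over the 21 lymphomas, from log2(CPM + 1). Sall3 is left out because its levels form separate groups. The darkest cells are Cym with Ace (-0.54) and Cym with Sh3rf3 (0.50), and most others lie near 0.

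The genes were set beside the summed levels of 9 lists of cell type markers, the library total, and Ikzf1, Notch1, Myc and Cdkn2a, 140 relations in all. After adjustment 3 passed by Spearman's rho: Arg1 with alternatively activated macrophage markers, Trnp1 with endothelial markers, and Ace with Notch1. The relation of Ace was taken over all 21 lymphomas although Notch1 falls into separate groups, and it did not pass within the larger group (adjusted p = 0.381). None of the 10 passed with the fibroblast sum, in which Col1a2, Pdgfrb and Fbln1 reached the highest levels. Library total gave rho between -0.23 and 0.09 for the 10 genes, and the level of Ikzf1 between -0.27 and 0.23. None of the 20 passed.

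Arg1 ran with macrophage genes. Its rho with the summed level of 8 markers of alternatively activated macrophages, such as Retnla, Chil3 and Mrc1, was 0.73 (permutation p = 0.000260, adjusted p = 0.0182; r 0.82, permutation p = 3e-05, and 0.67 without the 2 farthest). The adjusted p was 0.0525 to 0.0665 without lymphoma 9, 17, 18, 19 or 32. With 14 general macrophage and monocyte markers rho was 0.63 (permutation p = 0.00326, adjusted p = 0.114) and r 0.76 (permutation p = 0.000170, adjusted p = 0.00793, and 0.68 without the 2 farthest). Lymphoma 19, which had the most Arg1, also had the highest sums of both lists, 401 and 1283 CPM. The alternatively activated list summed to 22.3 to 401 CPM in the lymphomas and 12.4 to 16.2 in thymus, and of its 8 markers Mgl2 and Clec10a stayed below 1 CPM in every lymphoma. Of its 6 tested genes only 3 were higher than in thymus by edgeR's test: Mrc1, which is also in the general list, Fn1 and Pdcd1lg2. Retnla, Chil3 and Cd163 did not pass (edgeR adjusted p = 0.070, 0.185 and 0.843). The general list summed to 316 to 1283 CPM against 151 to 225 in thymus, with none of its genes at 0. By edgeR's test 13 of its 14 genes were higher, where 15.4% of all genes were. The part of macrophages in the Arg1 level was not tested. Of the other 9 genes none passed with either macrophage list.

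The lymphomas with the least Notch1 also held little Ace and Tmem132b. Notch1, a receptor whose signal directs progenitors to the T-cell fate, stood at 52.3 to 180 CPM in lymphomas 7, 12, 18 and 35 and at 658 CPM or more in the other 17. Ace was at 0.358, 0.722, 0.414 and 0.642 CPM in those 4, and Tmem132b at 0.204, 2.97, 0.127 and 2.64 CPM. Among the 17 lymphomas with higher Notch1, lymphoma 34 alone had Ace below 1 CPM, while Tmem132b was below 1 CPM in lymphoma 14 alone. As Notch1 falls into separate groups, the relation was read within the 17, where rho with Ace was 0.59 (permutation p = 0.0156, adjusted p = 0.381; r 0.56, permutation p = 0.0185, and 0.45 without the 2 farthest). With Tmem132b it was 0.22 (permutation p = 0.391; r 0.23, permutation p = 0.378). Nr3c2 ran opposite to Notch1 in the same 17 (rho -0.55, permutation p = 0.0249, adjusted p = 0.381; r -0.55, permutation p = 0.0217, and -0.40 without the 2 farthest).

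Trnp1 was lower where endothelial markers summed higher (rho -0.68, permutation p = 0.000820, adjusted p = 0.0383; r -0.68, permutation p = 0.000620, and -0.56 without the 2 farthest). The adjusted p lay above 0.05 in 13 of the 21 analyses that left out 1 lymphoma, reaching 0.129 without lymphoma 7. Of the 11 markers, 8 stayed below 1 CPM in every lymphoma, Cldn5 at 0, and Pecam1 made up most of the sum (90.3 to 264 CPM of sums of 103 to 269).

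To see whether the genes rose with their surroundings, the nearest tested gene on each side was taken for each, 20 in all at 1.54 to 1803 kb. Of these 4 were higher and 2 lower in the lymphomas than in thymus by edgeR's test, where 15.4% of all genes passed in each direction. Cyb561, which encodes an electron-carrying cytochrome b561 of secretory vesicles, lies 14.6 kb from Ace on the opposite strand (chromosome 11, 105933702 to 105953336). It stood at 0.574, 0.632 and 0.512 CPM in the thymus libraries and 22.9 ± 20.4 CPM in the lymphomas (log2 fold change 5.31, SE 1.38, edgeR adjusted p = 0.00564).

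Cyb561 followed Ace over the lymphomas (rho 0.87, permutation p = 2e-05, adjusted p = 0.000400 over 20 neighbours; r 0.87, permutation p = 2e-05, and 0.86 without the 2 farthest), and rho stayed between 0.85 and 0.89 when each lymphoma was left out. Lymphoma 34, with the least Ace, also had the least Cyb561 (0.154 CPM each), and lymphomas 15, 10 and 2, with 67.3, 58.0 and 50.4 CPM of Cyb561, had 126, 148 and 222 CPM of Ace. On the other side of Ace, at 46.9 kb, Dcaf7, a widely expressed scaffold gene, was at 266 ± 31.5 CPM against 216 ± 24.4 in thymus (log2 fold change 0.30, edgeR adjusted p = 0.0458), and its rho with Ace was 0.63 (permutation p = 0.00292, adjusted p = 0.0292; r 0.63, permutation p = 0.00190, and 0.56 without the 2 farthest). The call of Dcaf7 against thymus was lost in 13 of 24 fits that left out 1 library. Ace ran with many genes: of all genes kept in the model, 19.1% had a rho with it beyond 0.46 in either direction. Pitpnm2, Prdm11 and Aig1, none of them among the 20 neighbours, had a higher rho than Cyb561 (0.93, 0.91 and 0.89). Whether the relations of Cyb561 and Dcaf7 are particular to the locus was not tested.

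The other neighbours did not follow their gene after adjustment (smallest adjusted Spearman p = 0.147). Sowahc, 83.0 kb from Sh3rf3, was higher than in thymus (13.5 ± 24.6 CPM against 1.02 ± 0.0745; log2 fold change 3.72, edgeR adjusted p = 0.0242), and its call was lost when any of the thymus libraries was left out. Aacs, 14.4 kb from Tmem132b, was higher by 0.79 (edgeR adjusted p = 0.00186). Kcna2, a potassium channel gene 96.3 kb from Cym, was lower (13.8 ± 9.62 CPM against 71.6 ± 10.2; log2 fold change -2.37, edgeR adjusted p = 0.000723). Med23, which lies 1.54 kb from Arg1, was at 72.8 ± 7.93 CPM against 62.7 ± 9.33 (edgeR adjusted p = 0.144). Wisp1 was also set beside the median log2 ratio to thymus of 497 measured genes of its chromosome, 15, and rho was 0.22 (permutation p = 0.323; r 0.08, permutation p = 0.723, and 0.03 without the 2 farthest).

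**Figure D4:**
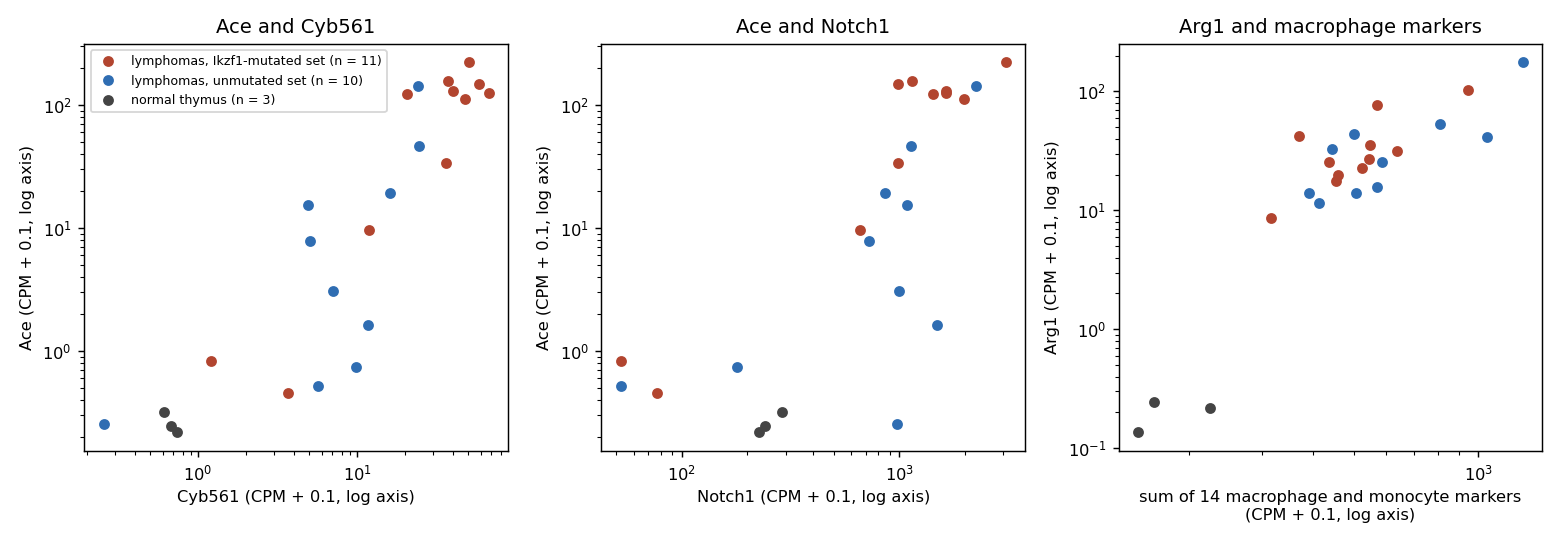
Each point is 1 library on log axes, CPM plus 0.1. Left, Ace against its neighbour Cyb561, which rise together over the lymphomas. Middle, Ace against Notch1, where the 4 lymphomas with Notch1 at or below 180 CPM all have Ace below 1 CPM. Right, Arg1 against the sum of 14 macrophage and monocyte markers, with lymphoma 19 at the upper right.

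The genes whose pattern over the lymphomas was most like that of each of the 10 were looked up among 11062 genes, as a description over 21 libraries that share tissue and preparation. Ace was most like Pitpnm2, a phosphatidylinositol transfer gene (rho 0.93, 59.0 to 923 CPM in the lymphomas), Prdm11 (0.91) and Aig1 (0.89). Arg1 was most like App, the amyloid precursor gene (0.87), C3ar1, the receptor of complement C3a (0.85), and Tlr13, a Toll-like receptor of myeloid cells (0.83). Trnp1 was most like Lpin2 (0.86), Dyrk3 (0.85) and Uck2 (0.85). For Sall3 the list was headed by Tspan13 (0.84), for Wisp1 by the lactate exporter Slc16a3 (0.82), for Tmem132b by Acnat1 (0.79) and for Sh3rf3 by the transcription factor Zeb1 (0.79). Lower values headed the lists of Cym (Mfsd1, 0.74), Vgll1 (the receptor gene Erbb3, 0.72) and Nr3c2 (Cdkn1a, the p21 cell-cycle inhibitor, 0.71). For none of the 10 was another of the 10 among the nearest: the best such rank was 137, that of Cym in the list of Sh3rf3.

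The pathways of the genes were described by lists, with counts by edgeR's test beside the 15.4% of all genes that were higher and the 15.4% that were lower than in thymus. Over all genes 4044 passed in either direction. Of these, 2262, 1913 and 2520 passed again without thymus library 1, 2 or 3, so the loss of a call there was common. Of the 12 tested genes of arginine and polyamine metabolism, which Arg1 feeds through ornithine, 5 were higher and 2 lower, with a median log2 fold change of 0.93 against 0.07 over all genes. Without any 1 of the thymus libraries 3 were higher and 0 lower, and of the 7 calls those of Odc1, Slc7a1 and Srm held in all 24 fits that left out 1 library. Odc1, ornithine decarboxylase, stood at 299 ± 82.7 CPM against 112 ± 9.61 and was higher in 21 of 21 lymphomas (log2 fold change 1.42, SE 0.25, adjusted p = 0.000222). The arginine transporter Slc7a1 rose by 1.66 (SE 0.36, adjusted p = 0.00147) and the spermidine synthase Srm by 1.1 (SE 0.29, adjusted p = 0.00585). A second transporter, Slc7a2, passed with 3.92 (adjusted p = 0.0188). Its call was lost when any thymus library was left out, as were those of Oat, Sat1 and Oaz1.

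Of 11 tested genes of Notch output, a list that also holds the receptors Notch1 and Notch3, 3 were higher and 1 lower. These calls held in all 24 fits that left out 1 library. Heyl, a Notch target, rose from 1.27 ± 0.213 to 115 ± 83.7 CPM (log2 fold change 6.49, SE 1.4, adjusted p = 0.00137), Hes1 by 3.05 (SE 0.77, adjusted p = 0.00471) and Myc by 1.84 (SE 0.32, adjusted p = 0.000196), while the T-cell receptor subunit Cd3e fell by 1.00 (SE 0.22, adjusted p = 0.00173). Cd3e is also among the T-lineage markers, of which 7 of 12 tested were lower. Notch1 itself did not pass (log2 fold change 2.14, adjusted p = 0.0725). Of 8 tested TEAD co-factors and Hippo outputs 1 was higher and 1 lower: the TEAD co-activator Yap1 fell from 2.66 ± 0.522 to 0.201 ± 0.222 CPM (log2 fold change -3.69, SE 0.51, adjusted p = 1.64e-05), and Ctgf, a target, rose by 5.62 from 0.0244 CPM (adjusted p = 0.0148, and not without thymus library 1 or 2). Between the Ikzf1 sets, where 2.43% of all genes were higher and 2.95% lower in the mutated set, Tead1 and Vgll4 of these 8 were higher and Tead2 lower (log2 fold changes 3.29, 0.40 and -3.66; edgeR adjusted p = 0.0207, 0.0490 and 0.0214). Of the other pathway lists, Axin2 of 6 tested CCN and Wnt genes was higher (log2 fold change 0.94, edgeR adjusted p = 0.0446). So was Map3k11 of 9 tested genes of the Sh3rf family and JNK partners (0.44, edgeR adjusted p = 0.0465). Bace2 of 5 tested aspartic proteases was lower (-2.31, edgeR adjusted p = 0.0255). No gene of the remaining pathway lists passed. Over the 24 fits that left out 1 library, the calls of Vgll4, Axin2 and Map3k11 were lost in 18, 15 and 20. Those of Tead1 and Tead2 held in each, with log2 fold changes from 1.80 to 3.47 for Tead1 and from -4.05 to -2.87 for Tead2, and that of Bace2 held in the 21 fits that kept it. All 3 genes were near the floor. Mean levels in the mutated and unmutated sets were 1.77 and 0.177 CPM for Tead1 and 0.237 and 2.99 CPM for Tead2. For Bace2 they were 0.0690 and 0.364 CPM, below the level called expressed here.

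For the partners of Sh3rf3, the paralogue Sh3rf1 rose in 21 of 21 lymphomas, from 20.3 ± 2.61 to 97.0 ± 19.3 CPM (log2 fold change 2.25, SE 0.21, adjusted p = 4.75e-08), and the kinase Mapk9 (JNK2) fell by 0.51 (SE 0.12, adjusted p = 0.00239). Of the 9 tested genes 2 were higher and 3 lower, but only these 2 calls held in all 24 fits that left out 1 library. Those of Mapk8ip1 and Map2k7 were lost without any 1 of the thymus libraries and that of Mapk8ip3 without thymus library 2. Of the Tmem132 family the tested paralogue, Tmem132a, rose by 2.98 (SE 0.74, adjusted p = 0.00421). The aspartic protease Ctse fell by 1.56 (SE 0.41, adjusted p = 0.00680) and Bace1 passed with 2.50 (adjusted p = 0.0228, lost when any thymus library was left out), 2 of 5 tested. Of 8 tested genes of the renin-angiotensin and steroid receptor list 2 were higher, Fkbp5 and the glucocorticoid receptor gene Nr3c1, and 2 lower, Hsd11b1 and Scnn1a. Of 6 tested genes of the CCN and Wnt list 2 were higher, Nkd1 and Ctnnb1, and 1 lower, Tcf7. Each of these 7 calls was lost without at least 1 of the thymus libraries, as were many of the 4044 calls over all genes. Neither tested gene of the SALL family (Sall4, adjusted p = 0.101, and Sall2, 0.559) nor any of 3 tested TAL and LMO genes passed.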

How the data were processed

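Poly(A) RNA of 21 lymphomas and 3 thymus samples was sequenced. The submitters' processing notes name HISAT2 2.0.1, HTSeq 0.6.1, cutadapt 1.9.1, edgeR and SAMtools, with the build GRCm38.p6. No source used here states the strand of counting, so reads of overlapping or antisense genes cannot be told apart. The authors deposited raw counts per gene symbol and a TPM table, which scales for gene length. The Ikzf1 sets follow the lymphoma columns of the authors' filtered count tables, never Ikzf1 counts.

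Counts were fitted in edgeR 4.0.16 (R 4.3.3; TMM, filterByExpr, 13121 genes, glmQLFit and glmQLFTest, Benjamini-Hochberg adjustment, threshold 0.05) in 1 model of mutated, unmutated and thymus groups; lymphomas against thymus used 2 groups. SE is the log2 fold change over the square root of F. Simulated counts were used to test the script. The filter kept all 10 genes, which the way they were chosen made certain. Correlations used log2(CPM + 1), with 100000 permutations (exact for 8 lymphomas); where the largest gap took over 25% of a measure's log2 range with at least 2 lymphomas on each side, relations were read within groups of at least 6. The floor is 3 counts over thymus.

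The members and the 19 lists were chosen with earlier results of these data known. Named are all 10 genes, for each the 3 genes of highest rho (mean of at least 1 CPM), up to 4 genes of each list past the threshold by smallest p or up to 3 where none passed, and markers at 0; neighbours, and values for Notch1 and Cyb561 per lymphoma, were chosen after seeing the data. Positions are from GENCODE M21, where Wisp1 is named Ccn4. Alternatives were DESeq2 1.42.0, limma-voom (limma 3.58.1), other filters and scalings, TPM and leaving out each library. The authors' CPM table of lymphomas picked by Grb10 level was not used.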

Additional observations from a re-analysis of the deposited data

How the results depend on the processing

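Between the Ikzf1 sets 706 genes passed, 388 with only the lymphomas in the model, 1269 with DESeq2 and 301 to 1221 when each library was left out, the lowest without lymphoma 34 and the highest without 31; without lymphoma 17, 18, 22, 30 or 35 the count was 447, 409, 414, 420 and 417. The split of 319 higher and 387 lower became 509 and 153 with limma on log2(TPM + 0.1) and 502 and 154 with log2(TPM + 1), where the median of all genes shifted to 0.10 and 0.08. None of the 10 genes passed under any of these except Ace without lymphoma 31. Against thymus 4044 genes passed, and 1929 to 4435 when each library was left out; without thymus library 1, 2 or 3 it was 2278, 1929 and 2545. Some small differences between the sets reversed. Tmem132b reached -0.13 and -0.061 on TPM and -0.22 to 0.37 over left-out libraries, Arg1 0.12 with limma-voom, 0.13 and 0.13 on TPM and -0.47 to 0.42, Nr3c2 -0.13 with limma-voom, -0.038 on log2(TPM + 0.1) and -0.13 to 0.38, Wisp1 -0.27 with limma-voom and -0.22 to 0.91, Sh3rf3 -1.24 with limma-voom, -0.80 and -0.27 on TPM and -1.14 to 0.54, and Sall3 -0.81 to 0.20; the cause was not tested. Relations that passed fell from 3 to 1 with log2(TPM + 1) and ranged from 0 to 3 over left-out lymphomas: 1 without 9, 17 or 19 and 0 without 18 or 32. On TPM, Arg1 with alternatively activated markers and Trnp1 with endothelial markers did not pass (adjusted p = 0.199 each). Sh3rf3 was expressed in 11 lymphomas at 5 CPM or at 1 TPM, not 17. Thymus levels rest on 0 to 15 counts per gene. No paired analysis was possible because no label pairs a lymphoma with a thymus sample.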
